A study of Rattus norvegicus with 4 samples.

Results

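Cell division in the rat mammary gland was read from 49 cell cycle and DNA replication genes, chosen by gene symbol from the annotation of the array. Of the 49 genes, 39 were measured by 50 of the 20500 features, out of 9571 genes that the annotation names singly. Ccnd1, Ccnd2, Cdk4, Tyms, Ccnb1, Aurka, Kif20a, Kif22, Tpx2 and Hmgb2 were not analysed here. By role, the measured genes comprised 3 of 6 regulators of G1 and of entry into S phase, 16 of 17 genes of DNA replication, and 20 of 26 genes of mitosis. A narrower S phase rule, given beside these 17, takes only the Mcm genes, Pcna, Pclaf, Rrm1, Rrm2 and Tyms.

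The mammary glands were those of Lewis rats, and total RNA was measured on 4 arrays, 1 for each group of 5 rats. In the parous group the litters were born when the dams were 87 days old and were nursed for 21 days. The pups were taken away at 108 days, and the glands involuted for 28 days until collection at 136 days. The age-matched virgins (AMV) never bore a litter and were collected at the same 136 days. The parous+MNU and AMV+MNU rats had these same histories, received N-methyl-N-nitrosourea (MNU), a DNA-alkylating mammary carcinogen, at 50 mg/kg by intraperitoneal injection, and were collected 3 weeks later at 157 days. The design thus asks how a past pregnancy changes the gland and its state after the carcinogen. No untreated group of 157 days was analysed here, so MNU and 3 weeks of further age cannot be told apart, and in parous rats neither can the longer time since weaning. Nothing in the sources used here says how the RNA of the 5 rats reached a single array, and with 1 array per group a difference between 2 groups has no replicate check and no test.

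Dividing cells pass through G1, copy their DNA in S phase, and separate the copies in mitosis. Cyclin-dependent kinases that inactivate RB allow E2F factors to switch on replication genes before S phase. Later, MuvB complexes with B-MYB and FOXM1 act on mitotic genes through a CHR element (cell cycle genes homology region) near the start site. The promoters of mitotic genes often hold a CCAAT box as well. In the mammary gland, division is high in the growing ducts and in pregnancy and low in the resting adult and the involuted gland. RNA of these genes in whole tissue is commonly read as a measure of cells in cycle, although in such RNA more cells of a type and more RNA per cell cannot be told apart.

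The promoters of 4 genes are shown as examples of the elements named above, 3 mitotic genes with the CHR and CCAAT letters, of which Cdk1 and Cks2 were high on 1 array below and Cdc20 was level, and the S phase gene Mcm5 with the E2F letters. Each is a RefSeq sequence of build GRCr8, from 250 bases before to 50 bases after the gene start, read 5′ to 3′ on the strand of the gene. Capitals mark the CHR letters TTTGAA and the CCAAT letters on either strand in the first 3, and in Mcm5 the E2F letters TTTCCCGC, TTTCGCGC and TTTGGCGC on either strand. The Cdk1 window lies at chr20:19265043-19265342 on the plus strand, its CHR matches begin at -72 and -16 from the gene start, and its CCAAT matches at -210, -81 and -49. The Cks2 window lies at chr17:13727470-13727769 on the minus strand, with a CHR match at -19 and CCAAT matches at -139, -96, -60 and -42. The Cdc20 window lies at chr5:137255750-137256049 on the minus strand, with a CHR match at -51 between CCAAT matches at -86 and -41. The Mcm5 window lies at chr19:13488563-13488862 on the plus strand, with E2F matches at -213, -209 and -8, of which the first and second overlap, and its 3 CCAAT matches are left in lower case.
Cdk1: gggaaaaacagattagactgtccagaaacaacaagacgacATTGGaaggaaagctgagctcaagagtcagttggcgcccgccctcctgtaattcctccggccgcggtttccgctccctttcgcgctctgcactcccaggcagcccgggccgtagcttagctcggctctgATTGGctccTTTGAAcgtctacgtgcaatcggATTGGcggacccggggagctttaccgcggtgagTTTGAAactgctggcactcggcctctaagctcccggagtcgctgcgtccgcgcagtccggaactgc
Cks2: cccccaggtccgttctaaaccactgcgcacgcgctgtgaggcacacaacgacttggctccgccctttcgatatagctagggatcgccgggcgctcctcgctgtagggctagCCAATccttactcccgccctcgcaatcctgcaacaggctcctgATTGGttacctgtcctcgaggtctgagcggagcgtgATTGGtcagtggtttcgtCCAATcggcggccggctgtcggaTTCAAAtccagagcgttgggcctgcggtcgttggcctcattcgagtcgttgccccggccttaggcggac
Cdc20: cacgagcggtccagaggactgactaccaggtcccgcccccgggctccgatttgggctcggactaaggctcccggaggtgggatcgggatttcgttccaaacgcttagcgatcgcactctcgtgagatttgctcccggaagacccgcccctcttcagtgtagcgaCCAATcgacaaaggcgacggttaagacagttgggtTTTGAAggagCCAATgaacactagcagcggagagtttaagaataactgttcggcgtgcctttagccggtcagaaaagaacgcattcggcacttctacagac
Mcm5: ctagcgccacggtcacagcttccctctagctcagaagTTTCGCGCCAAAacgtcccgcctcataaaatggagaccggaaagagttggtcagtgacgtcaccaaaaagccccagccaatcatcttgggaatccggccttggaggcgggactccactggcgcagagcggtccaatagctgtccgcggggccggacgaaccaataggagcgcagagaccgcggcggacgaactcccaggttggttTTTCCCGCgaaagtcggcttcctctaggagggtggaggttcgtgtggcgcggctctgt

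The same letters were counted in all windows, on both strands, with E2F taken as TTTCCCGC, TTTCGCGC, TTTGCCGC or TTTGGCGC. RefSeq windows matched 41 of the 49 genes, 44 windows in all. Among the 23 mitotic windows, 16 (69.6%) held the CHR letters, 19 (82.6%) a CCAAT box, and 2 (8.7%) the E2F letters. Those 2 were Stmn1 and Cdk1, whose E2F match at -133 is left in lower case above. Among the 17 S phase windows, 1 (5.88%) held the CHR letters, 12 (70.6%) a CCAAT box and 10 (58.8%) the E2F letters. Across all 33469 rat windows the shares were 18.3% for CHR, 37.5% for CCAAT and 2.14% for E2F. The windows differed in base composition, with a median GC content of 58.3% in the S phase genes, 59.7% in the mitotic genes and 51.7% in all windows, and these matches are descriptions of sequence, not measured binding sites.

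Array medians lay between 179 and 238 intensity units, and 390 to 795 features had no value on an array. Intensities were brought to a common distribution over the 4 arrays, and values below the pooled 40th percentile, 176.9 units, were set to that floor before differences were taken. A gene was kept for the comparisons where its brightest feature exceeded the pooled median, 215.0 units, on at least 1 array. The lowest intensities on the arrays were 46.1 to 63.7 units rather than near 0. If that level is background, folds of dim genes are understated, but how background was treated is not known here. Of the 39 measured genes, 30 were kept, 28 of them with values on all 4 arrays. Pcna had no value on the parous+MNU array and Pclaf none on the AMV array. Tk1, Uhrf1 and Cenpf were kept only through the AMV+MNU array, Mcm7 only through parous and Rrm2 only through AMV, so the kept genes do not stand for all 39. Levels below are normalized intensities, and differences are log2 ratios of them.

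The AMV+MNU array stood above the rest for most of the division genes. Over the 37 genes with a value on every array, taken without filter or floor, AMV+MNU was the highest of the 4 arrays for 25, against 29.2% of all 8838 genes measured on every array. It was the highest for 14 of 20 mitotic genes, 9 of 14 S phase genes and 2 of 3 G1 and G1/S regulators. Such ranks take no account of size. Ccne1 led by only 0.05 on the log2 scale, Cdk2 by 0.04 and Bub1b by 0.02. Ccna2 led by 0.13 but was under the floor on all 4 arrays. In a measure chosen after the values were seen, the gap from AMV+MNU down to the next array was wider than the range of the remaining 3 arrays for 18 of 37 genes, 12 of them mitotic and 6 of S phase, against 9.45% of all genes. The 12 include Ccna2. At the other end, the untreated AMV array was the lowest for 17 of 37 genes, 12 of them mitotic, against 23.2% of all genes.

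**Figure D1:**
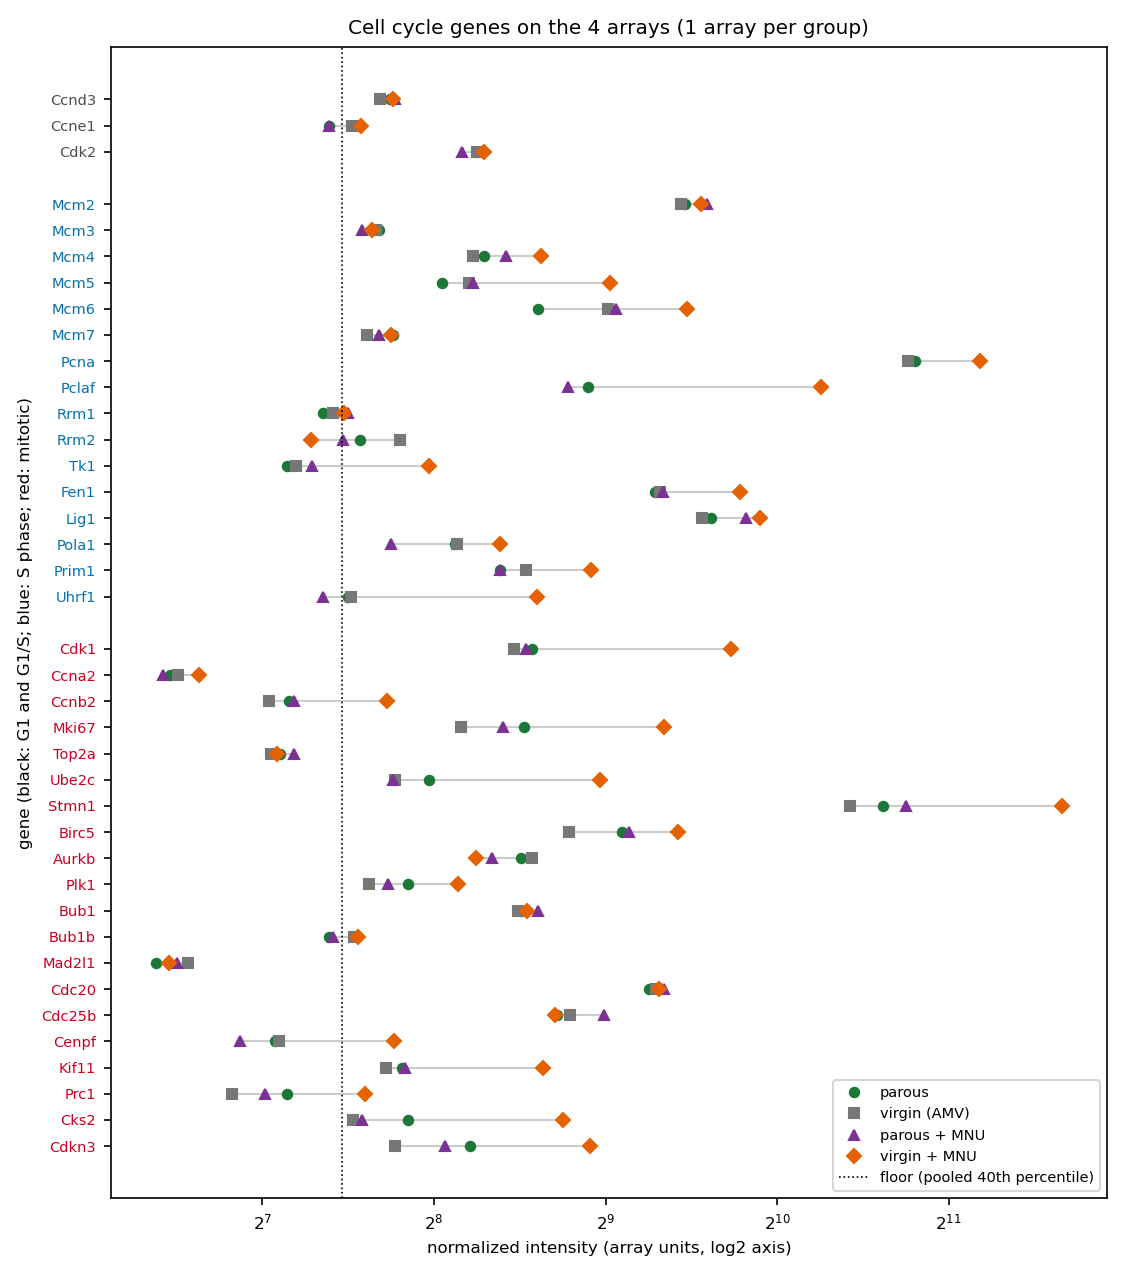
Normalized intensity (log2 axis, array units) of the 39 measured genes on each of the 4 arrays, 1 symbol per array and no error bars since each group has 1 array. The dotted line is the floor at 176.9 units. Orange diamonds (AMV+MNU) lie to the right of the rest for 25 of the 37 genes with all 4 values.

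Among the mitotic kinases and their partners, Cdk1, the kinase that drives entry into mitosis, measured 380.5 units in parous, 353.3 in AMV, 372 in parous+MNU and 850.8 in AMV+MNU glands. Cks2, a small subunit that binds cyclin-dependent kinases, measured 230.7, 184.8, 191.6 and 430.3 units in the same order. Cdkn3, a phosphatase that removes the activating phosphate of CDK proteins, measured 295.6, 218.5, 267.7 and 481 units. In all 3 genes AMV+MNU was the highest array and untreated AMV the lowest, and among the other 3 arrays Cdkn3 still ranged by 0.44 on the log2 scale, from AMV to parous. Plk1, the polo-like kinase of spindle assembly, showed a smaller step, with 230.7, 197, 212.6 and 281.8 units. Aurkb, the kinase of the chromosomal passenger complex, ran the other way, at 363.2, 381.1, 323.4 and 303.1 units, while its partner Birc5 (survivin) measured 548.2, 442.1, 562.9 and 686.9 units. The pair therefore had its lowest and its highest value, respectively, on the AMV+MNU array.

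Mki67, which encodes the proliferation antigen Ki-67 on mitotic chromosomes, measured 368.1 units in parous, 285.6 in AMV, 338.8 in parous+MNU and 648.2 in AMV+MNU glands. Stmn1, stathmin, which destabilises microtubules, was the brightest mitotic gene measured, at 1572, 1375, 1722 and 3233 units. Kif11, the kinesin that separates the spindle poles, measured 225.3, 211.2, 227.6 and 397.5 units. These 3 genes had the profile of Cdk1, a single high array. Ube2c, the ubiquitin-conjugating enzyme of the anaphase-promoting complex, measured 250.9, 218.5, 217.1 and 500.3 units. Cdc20, which activates the same complex, did not share the step and measured 609.9, 627, 648.7 and 635.3 units. Both the CHR and CCAAT letters are in the Cdc20 window shown above, as they are in those of Cdk1 and Cks2, so genes with these letters included ones with and without the high array.

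Other mitotic genes were level or dim. Bub1, a spindle checkpoint kinase, measured 360 to 390 units, and Cdc25b, a phosphatase that activates CDK1, measured 417.6 units in AMV+MNU and 509 in parous+MNU glands. Cenpf, a kinetochore protein, read 134.5, 136.7 and 117 units, all under the floor, on the parous, AMV and parous+MNU arrays and 217.6 units in AMV+MNU. The Cenpf steps are thus known only as bounds. Ccnb2, a mitotic cyclin, and Prc1, which bundles the central spindle, did not reach the filter, but their highest value was also on the AMV+MNU array, 211.5 units against 131.3 to 145.3 for Ccnb2 and 194 units against 113.2 to 141.4 for Prc1. Ccna2 (cyclin A2), Top2a (topoisomerase II alpha) and Mad2l1 (a spindle checkpoint protein) were under the floor on all 4 arrays. Bub1b, a further checkpoint kinase, measured 167.7 to 188 units, so no difference could be read from these 4 genes.

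Among the replication factors, Pclaf, which binds the sliding clamp PCNA, had the widest range of the S phase genes, with 476.6 units in parous, 440.7 in parous+MNU and 1222 in AMV+MNU glands. Pcna itself measured 1790 units in parous, 1741 in AMV and 2323 in AMV+MNU glands. Uhrf1, which recruits DNA methyltransferase to newly copied DNA, measured 181 units in parous, 183.1 in AMV and 388.7 in AMV+MNU glands, with 163.6 units, under the floor, in parous+MNU. For all 3 the AMV+MNU array was the highest of those measured. Fen1, the flap endonuclease of lagging strand synthesis, measured 626.4, 638.3, 644.7 and 880.8 units. Prim1, the primase subunit, measured 333.8, 371.1, 334.5 and 482.9 units. Pola1, the catalytic subunit of the polymerase that extends those primers, measured 279.2, 280.7, 215.6 and 334.8 units, so that it was low in parous+MNU as well as high in AMV+MNU. Lig1, the ligase that joins the fragments, differed less between arrays, at 784.8, 754.7, 901.3 and 955.8 units.

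The MCM proteins form the ring-shaped replicative helicase, but their genes did not move as a unit. Mcm5 measured 264.7 units in parous, 294.5 in AMV, 299.7 in parous+MNU and 522.3 in AMV+MNU glands. Mcm6 measured 389.8, 517.9, 534.5 and 712.6 units, so that it was higher after MNU in parous as well as in virgin glands. Mcm4 measured 313.5, 300.1, 342.9 and 394.5 units. Of the remaining MCM genes, Mcm2 lay between 695.5 and 772.6 units and Mcm7 between 195.2 and 216.8, while Mcm3, at 191.6 to 205.2 units, did not reach the filter. Hence only Mcm5 of the 6 MCM genes exceeded 1.5-fold between any of the 4 pairs of groups compared below, as read from the brightest feature of each gene.

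Among the listed genes, the measured enzymes of nucleotide supply, Tk1, Rrm1 and Rrm2, were near or under the floor on most arrays. Tk1, thymidine kinase, measured 141.4, 146.8 and 156.1 units, all under the floor, on the parous, AMV and parous+MNU arrays and 251.1 units in AMV+MNU. Rrm2, the regulated subunit of ribonucleotide reductase, ran the other way, at 189.7, 223.2, 177.1 and 155.5 units, with AMV+MNU under the floor. Rrm1, the large subunit of that enzyme, measured 163.8 to 180.9 units and did not reach the filter. Of the G1 and G1/S regulators, Ccnd3 (cyclin D3) measured 205.9 to 218.5 units and Cdk2, which starts S phase with cyclin E, 286.8 to 313.8 units. Ccne1, cyclin E1, was near the floor at 167.2 to 191 units, so the regulators of G1 measured here were level across the 4 groups.

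In virgin glands, the comparison of AMV+MNU with AMV asks what differed 3 weeks after the carcinogen. At least 2-fold higher were 7 of the 29 kept genes with both values, namely Cdk1, Stmn1, Cks2, Ube2c, Mki67, Cdkn3 and Uhrf1, where 0.292% of all 5816 kept genes were called. The folds were 2.41 for Cdk1, 2.35 for Stmn1, 2.33 for Cks2, 2.29 for Ube2c, 2.27 for Mki67, 2.20 for Cdkn3 and 2.12 for Uhrf1. These 7 were 41.2% of the 17 genes that were at least 2-fold higher in this comparison, and 6 of the 7 are mitotic. A further 3, Kif11 at 1.88-fold, Mcm5 at 1.77-fold and Birc5 at 1.55-fold, passed 1.5-fold, making 10 genes where 1.36% of all genes were that much higher. The 29 genes spanned log2 differences of -0.34 to 1.27, and 26 lay above 0, where 50.9% of all genes did. The 3 below 0 were Rrm2 (-0.34), Aurkb (-0.33) and Cdc25b (-0.09).

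The median log2 difference in virgin glands was 0.77 over the 14 kept mitotic genes and 0.39 over the 13 kept S phase genes, against 0.01 over all kept genes. Since 3 of the kept genes passed the filter only through AMV+MNU, the same was read without filter or floor over all 38 genes with both values. There 33 lay above 0, where 50.9% of all 9142 genes did, and the median was 0.39. Under this reading 7 genes were at least 2-fold higher, where 0.197% of all genes were called, and the medians were 0.65 over 20 mitotic and 0.38 over 15 S phase genes. Over the 9 genes of the narrower S phase rule with both values, the median was only 0.14. With filter and floor it was 0.39 over 7 genes of that rule.

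In parous glands, the same comparison of parous+MNU with parous gave no gene of the 29 at or past 1.5-fold, where 0.968% of all 5787 genes were called in either direction and 0.0864% at 2-fold. The log2 differences ran from -0.37 for Pola1 to 0.46 for Mcm6, with 14 above 0, where 49.2% of all genes lay, 13 below and 2 at 0. The median was 0.00, with medians of -0.02 over the mitotic and 0.00 over the S phase genes. The genes with the widest steps in virgin glands had little or none here: Cdk1 differed by -0.03, Mki67 by -0.12, Ube2c by -0.21, Cks2 by -0.27 and Stmn1 by 0.13. Mcm6 was the exception among the S phase genes, 1.37-fold higher after MNU in parous and 1.38-fold higher in virgin glands.

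**Figure D2:**
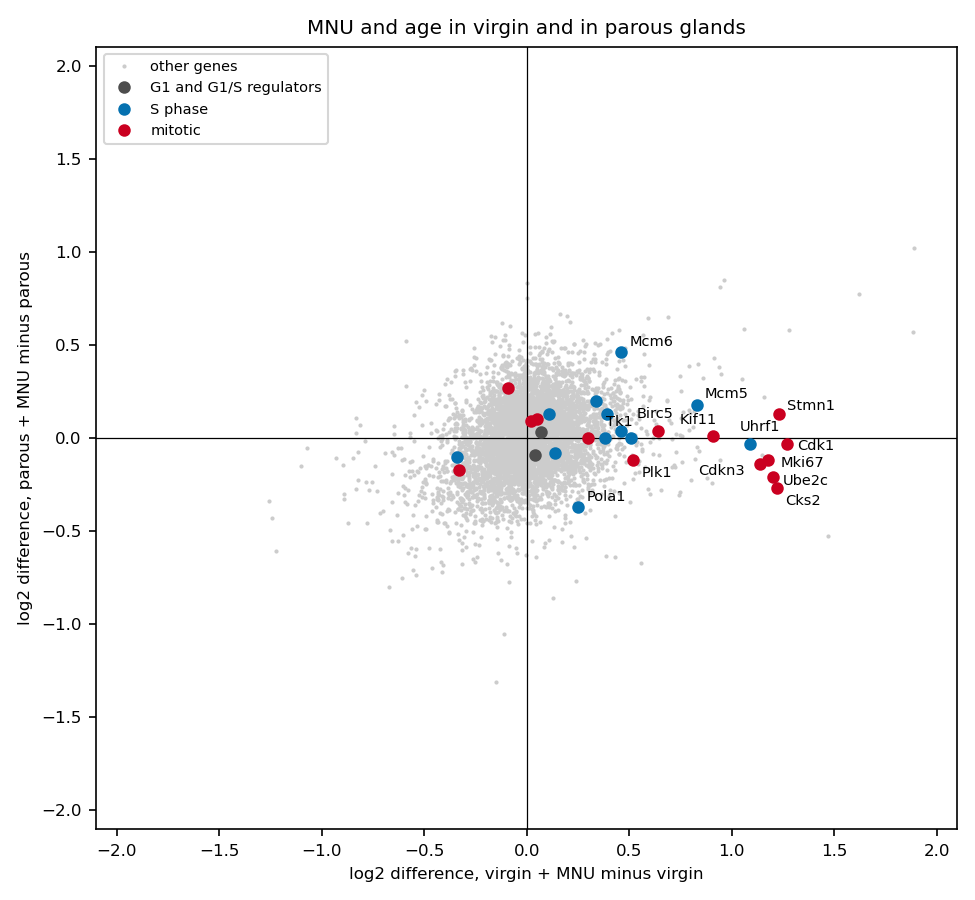
Log2 difference after MNU in virgin glands (x axis) against that in parous glands (y axis) for 5582 genes with values on all 4 arrays, 1 array per group; 1 gene lies outside the axes. The coloured points are 28 cell cycle genes, of which the mitotic ones reach 1.27 on the x axis while the coloured points stay between -0.37 and 0.46 on the y axis.

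The difference between these differences, virgin minus parous, was at least 2-fold for 7 of the 28 genes with all 4 values, where 0.376% of all 5582 genes were called higher. It was 1.49 on the log2 scale for Cks2, 1.40 for Ube2c, 1.30 for Cdk1, 1.30 for Mki67, 1.28 for Cdkn3, 1.12 for Uhrf1 and 1.10 for Stmn1. The median was 0.77 over the mitotic genes and 0.32 over 12 S phase genes, against 0.01 over all genes. Uhrf1, Tk1 and Cenpf are among the 28 only through AMV+MNU, and without filter or floor 7 of 37 genes were at least 2-fold, where 0.283% of all 8838 genes were called, with medians of 0.65 over the mitotic, 0.24 over the S phase and 0.27 over all 37 genes. Over 8 genes of the narrower S phase rule that median was 0.04. The virgin minus parous difference was near 0 for Mcm6 (0.00), Mcm2 (-0.01), Bub1 (-0.05) and Cdc20 (-0.07), and negative for Cdc25b (-0.36) and Rrm2 (-0.24). With 1 array per group these differences were not tested.

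**Figure D3:**
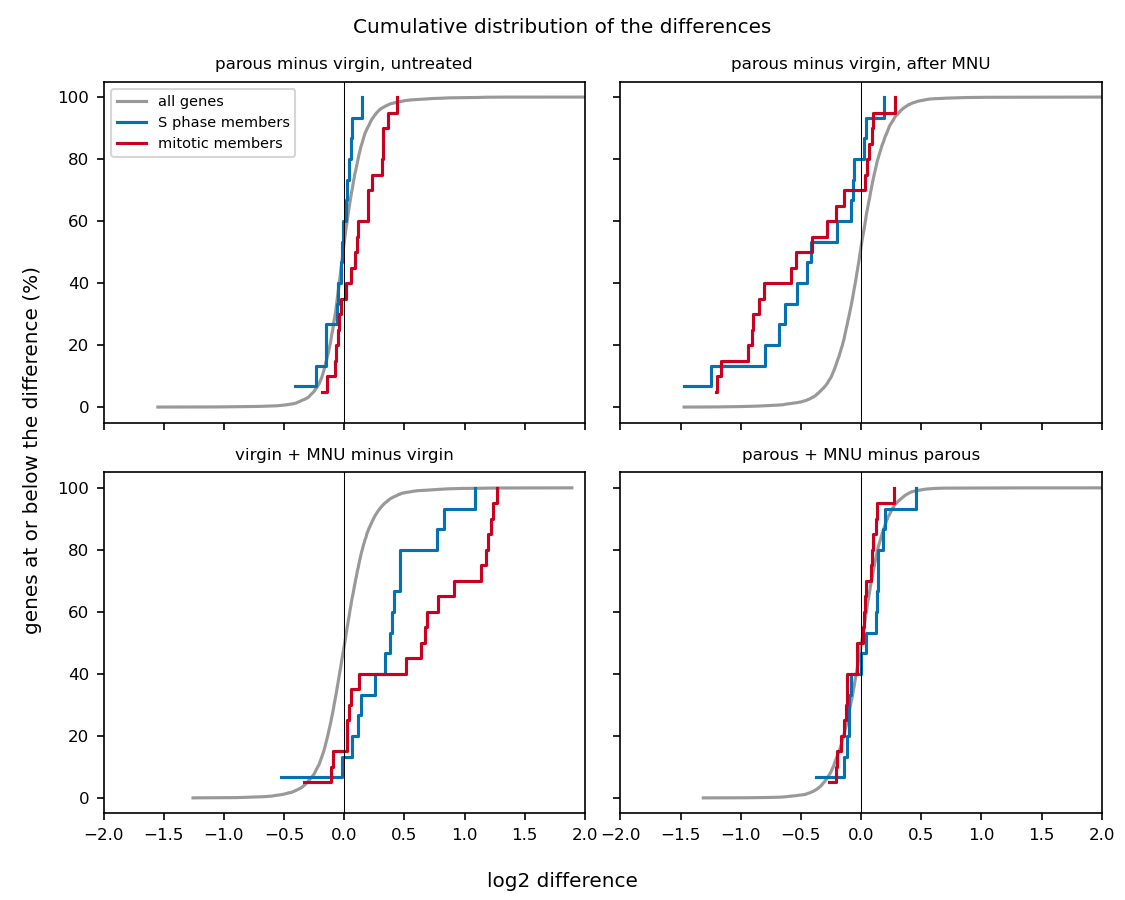
Cumulative share of genes (y axis, percent) at or below each log2 difference (x axis) in the 4 comparisons, with no filter and no floor, for all genes (grey), S phase genes (blue) and mitotic genes (red). In the virgin MNU comparison the mitotic curve lies to the right of the grey curve, with a median of 0.65, and in the parous MNU comparison the 3 curves overlie each other.

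After MNU, the comparison of parous+MNU with AMV+MNU asks whether a past pregnancy made a difference in glands that had met the carcinogen, and it shares its AMV+MNU array with the virgin comparison. At least 2-fold lower in parous+MNU were 5 of 29 genes, where 0.246% of all 5681 genes were called. They were Pclaf at 2.77-fold, Ube2c at 2.30-fold, Cdk1 at 2.29-fold, Cks2 at 2.25-fold and Uhrf1, whose parous+MNU value was under the floor, at 2.20-fold or more. At 1.5-fold the count was 11 genes lower and none higher, where 1.43% of all genes were lower and 0.88% higher, with Mki67 at 1.91-fold, Stmn1 at 1.88-fold, Cdkn3 at 1.80-fold, Kif11 at 1.75-fold, Mcm5 at 1.74-fold and Pola1 at 1.55-fold. The 29 log2 differences ran from -1.47 to 0.29, and 22 lay below 0, where 52.6% of all genes did, and 7 above. The medians were -0.61 over the mitotic and -0.45 over the S phase genes, against -0.01 over all genes. Uhrf1, Tk1 and Cenpf are among these 29 only through AMV+MNU, the higher array here. Without filter or floor, 28 of 38 genes lay below 0, where 51.5% of all 8973 genes did, with a median of -0.35. In that reading 5 of 38 genes were at least 2-fold lower, where 0.156% of all genes were. At 1.5-fold 13 of 38 were lower, where 1.11% of all genes were. The median over 9 genes of the narrower S phase rule was -0.07.

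Without MNU, none of 29 genes differed by 1.5-fold between parous and AMV glands, where 1.7% of all 5989 genes were called in either direction and 0.451% at 2-fold. Of the 14 mitotic genes 10 lay above 0, that is higher in parous glands, where 46.8% of all genes did, with log2 differences of up to 0.44 for Cdkn3, 0.37 for Mki67 and 0.32 for Cks2, and Cdc25b the lowest at -0.08. The median was 0.15 over the 14 mitotic genes and -0.01 over the 13 S phase genes, and as deposited the mitotic median was 0.03 where that of all genes was -0.08. The further mitotic genes described below had a median of -0.02, with 14 of 30 above 0 and 15 below. Mcm6 was the lowest, at -0.41, followed by Rrm2 at -0.23. For scale, the robust SD of the difference over all genes in this comparison was 0.155, which includes noise as well as any differences between the groups. The parous minus virgin difference had opposite signs without and with MNU, untested, in several of these genes. It was 0.37 and -0.94 for Mki67, 0.44 and -0.85 for Cdkn3, 0.32 and -1.17 for Cks2, and 0.20 and -1.20 for Ube2c. The share of all genes with such a change of sign was not counted.

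**Figure D4:**
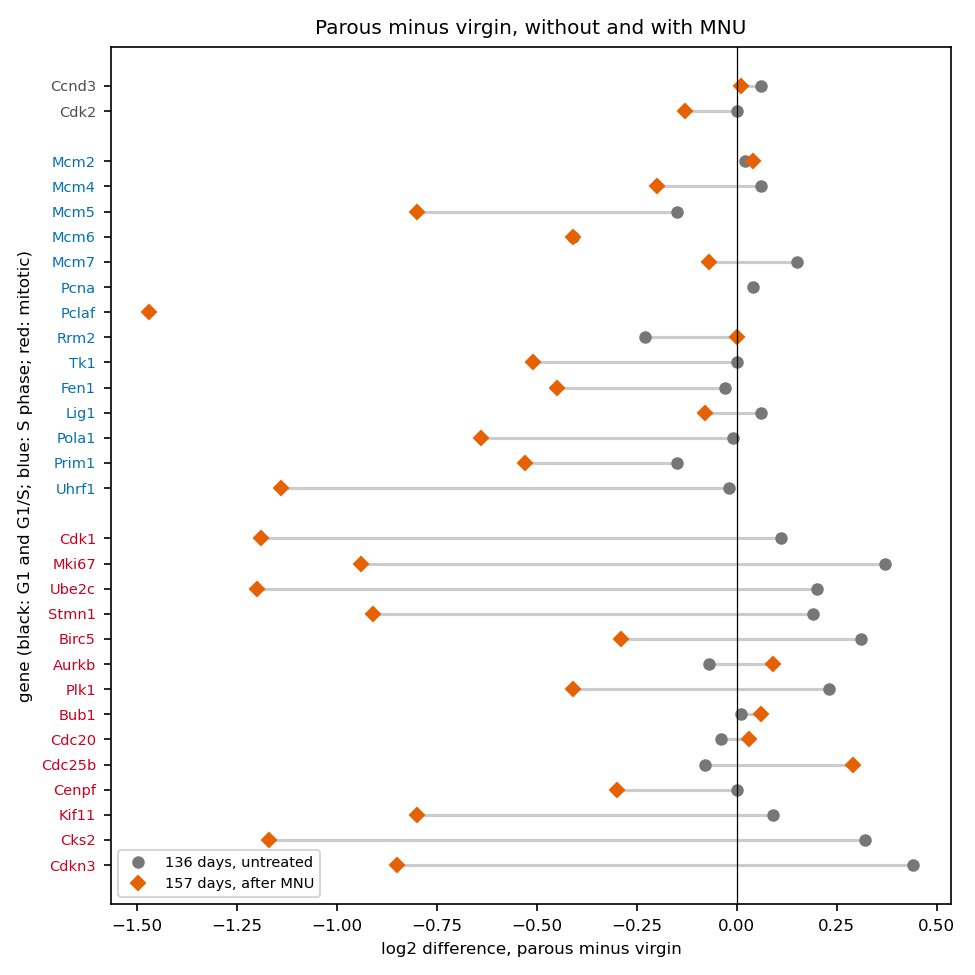
Log2 difference of parous minus virgin glands (x axis) for the 30 kept genes, without MNU at 136 days (grey circles) and after MNU at 157 days (orange diamonds), each from 1 pair of arrays. The circles stay between -0.41 and 0.44, and the diamonds reach -1.47 for Pclaf and -1.20 for Ube2c. Pcna and Pclaf have 1 symbol each because 1 array had no value.

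The only test the 4 arrays allow is a fit of parity and of MNU with age as additive terms, which leaves 1 residual degree of freedom and treats any joint effect of both as error. With limma and Benjamini-Hochberg adjustment over 5582 genes, 66 genes (1.18%) were called for parity and 10 (0.179%) for MNU with age, and no cell cycle gene of 28 was called for either. The smallest adjusted p of these genes belonged to Mcm6 in both terms, with -0.41 ± 0.11 (SE, adjusted p = 0.122) for parity and 0.46 ± 0.11 (SE, adjusted p = 0.124) for MNU. At an unadjusted p under 0.05 there were 6 of 28 genes for parity, where 9.84% of all genes passed, and 12 of 28 for MNU, where 12.7% did. Of those 12, only Aurkb was lower after MNU, at -0.25. Uhrf1, Tk1 and Cenpf are among the 28 only through AMV+MNU. Without filter or floor, limma gave 6 of 37 genes for parity, where 732 of all 8838 genes passed unadjusted. For MNU it gave 12 of 37, where 988 of all genes passed. In the filtered fit the MNU term for Stmn1 was 0.68 ± 0.19 (SE, limma adjusted p = 0.183) and for Cdk1 0.62 ± 0.22 (SE, limma adjusted p = 0.275). These calls changed with the scaling and with the filter. With arrays centred on their medians, limma called 9 of 28 cell cycle genes for MNU and 4 for parity, where 106 and 112 of all 5578 genes were called. A stricter filter with the scaling unchanged gave 4 and 2 of 19 cell cycle genes, where 113 and 131 of all 4309 genes were called. No other alternative tried gave more than 4 for either. The 9 under median centring were Cdk1, Cdkn3, Cks2, Kif11, Mcm5, Mki67, Stmn1, Ube2c and Uhrf1.

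Of the 11 genes with a second feature, 9 had that feature under the floor on all 4 arrays, Uhrf1, Kif11, Tk1 and Cenpf among them. Under the floor no difference can be read, so for these 9 genes, whether or not the brighter feature showed a step, there was no second reading. Neither feature of Rrm1 passed the filter. Its second feature read 148.5 units in parous and 162.6 in AMV, both under the floor, 178.3 in parous+MNU and 198.7 in AMV+MNU. Without the floor its MNU differences were 0.29 in virgin and 0.26 in parous glands, against 0.06 and 0.14 for its brighter feature. Mcm2 was the gene whose second feature also passed the filter, and its features disagreed. The brighter feature of Mcm2 differed by 0.11 in virgin glands, and the dimmer one, at 239.2 units in parous, 248.4 in AMV, 244.8 in parous+MNU and 378.5 in AMV+MNU glands, differed by 0.61. Both features of Mcm2 carry the same RefSeq accession in the annotation.

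In virgin glands after MNU, 22 of 28 kept further S phase genes and 24 of 28 kept further mitotic genes lay above 0, with medians of 0.21 and 0.19, where 50.9% of all genes lay above 0. Some of these, such as the S phase gene Gins1 and the mitotic gene Nuf2, passed the filter only through AMV+MNU. Without filter or floor 31 of 41 and 34 of 45 lay above 0, with medians of 0.17 and 0.12, where 50.9% of all 9142 genes did. None of the kept further genes reached 2-fold in any of the 4 comparisons, where 0.292% of all genes were that much higher in virgin glands, but without filter or floor 1 of 45 further mitotic genes did so there, at 1.03 on the log2 scale. Named after their values were seen, the mitotic GTPase-activating protein gene Racgap1 had the largest difference of these genes in virgin glands, at least 0.90 on the log2 scale, since its AMV value was at the floor, and the replication licensing gene Cdt1 came next at 0.86. In parous+MNU against AMV+MNU glands, 23 of 27 further S phase genes and 22 of 28 further mitotic genes lay below 0, with medians of -0.29 and -0.20, where 52.6% of all genes lay below 0. Without filter or floor 32 of 38 and 36 of 45 lay below 0, with medians of -0.17 and -0.13, where 51.5% of all 8973 genes did. Over the kept further genes, the medians in parous glands after MNU were -0.03 and 0.03, and without MNU the parous minus virgin medians were 0.00 and -0.02.

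Of 34 genes of the E2F and RB families, CDK inhibitors and related upstream regulators, 12 were kept, and their medians stayed between -0.13 and 0.06 in the 4 comparisons. Cdkn1b, which encodes the CDK inhibitor p27, measured 1100 units in parous, 759.5 in AMV, 871.8 in parous+MNU and 696.3 in AMV+MNU glands, the highest in the untreated parous and the lowest in the AMV+MNU gland. Its parous to virgin difference was 0.53 without and 0.32 with MNU. Cdkn1a, the p53 target p21, had virgin and parous MNU differences of 0.14 and 0.08, and Ccng1, another p53 target, of 0.04 and -0.28. Cdkn1c, encoding p57, had values on the MNU arrays only, 767.2 units in parous+MNU and 812 in AMV+MNU. For the E2F partner Tfdp1 the virgin difference was 0.30, for the INK4 inhibitor Cdkn2c 0.31 and for the MYC family gene Mycn 0.33. The pocket protein gene Rbl2 gave -0.11, Myc -0.08, Ccng2 -0.13, and the CDK-activating kinase subunits Ccnh and Mnat1 0.06 and 0.20. None of the 12 reached 1.5-fold, where 0.968% to 2.31% of all genes did in either direction in the 4 comparisons, and a count of 0 among so few genes is near that share.

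**Figure D5:**
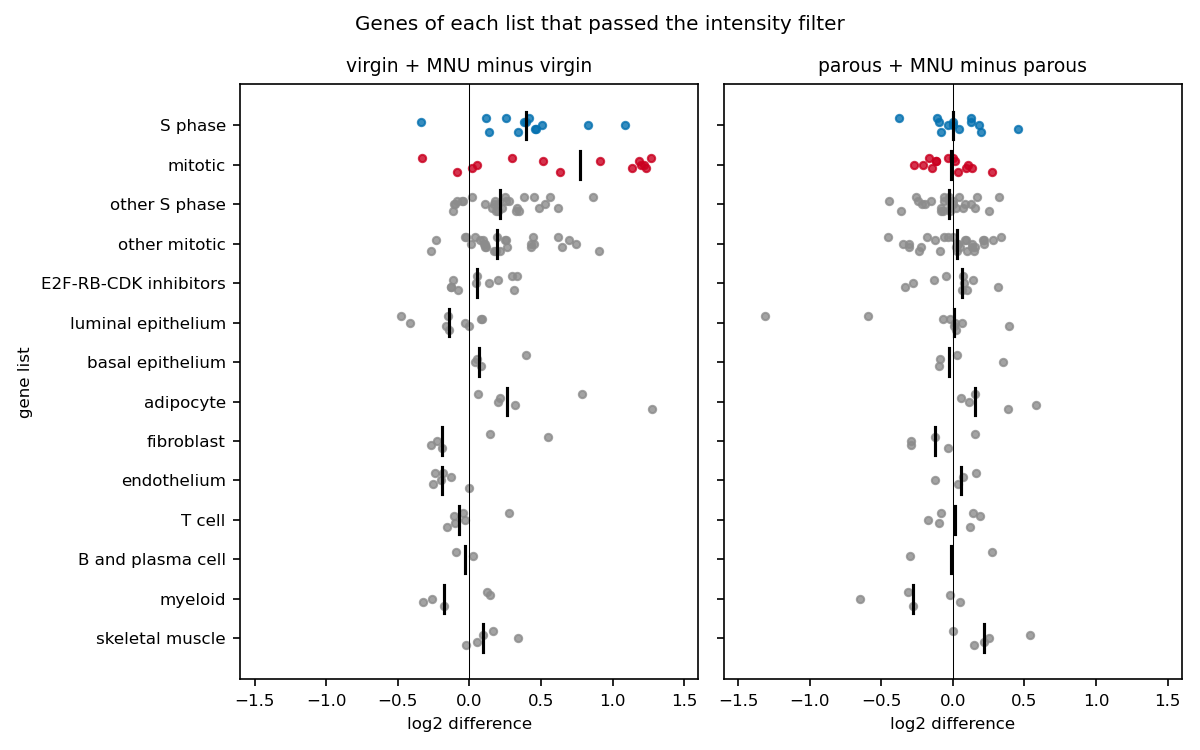
Log2 difference after MNU in virgin glands (left) and parous glands (right) for the kept genes of each list; each point is a gene from 1 pair of arrays and each black bar the median. The mitotic median is 0.77 on the left and -0.02 on the right, and on the left the luminal epithelium has a median of -0.14 and the adipocytes of 0.27.

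Levels of cell type markers are given beside these results because the tissue is mixed. The mammary epithelium was present on every array, with 9 luminal and 4 basal markers all above the floor. The summed luminal intensity was 19369 units in parous, 17261 in AMV, 16809 in parous+MNU and 14159 in AMV+MNU glands, and the basal sum 3603 to 3911 units. The AMV+MNU array, high for the division genes, was thus lowest for the luminal sum. Epcam, at 6775 units in AMV and 5089 in AMV+MNU, and Krt19, at 3701 and 2662, made up most of that fall. Cldn3 and Cd24 were also lowest in AMV+MNU and Prlr was level. Krt7 was highest there, at 401.7 units, and Cdh1, Cldn7 and Muc1 were lowest on other arrays. The summed intensity of 5 adipocyte markers was 5865 units in parous, 6999 in AMV, 7813 in parous+MNU and 13068 in AMV+MNU glands. Among these, Gpd1 and Slc2a4 differed by 1.28 and 0.79 in virgin glands after MNU, and Lipe, Cidec and Lep by 0.21, 0.20 and 0.06. Gpd1 alone, at 3504 units in AMV and 8502 in AMV+MNU, made up most of the rise in the sum. The adipocyte sum therefore had the same highest array as Cdk1 and Mki67, and its part in the differences was not tested.

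The lists of blood-borne cells, which can also divide, moved less with the AMV+MNU array. The 10 T cell markers, 4 of them under the floor on every array, summed to 2480 units in AMV+MNU and 2558 to 2664 in the others. The myeloid sum of 8 markers, 3 of them under the floor, was 7680 units in AMV+MNU and 7879 to 8822 in the others. The sum of 4 B and plasma cell markers, 2 of them under the floor, was 7389 and 7003 units in the parous and parous+MNU glands and 4422 and 4252 in the AMV and AMV+MNU glands. That gap lay in Jchain, a joining chain of secreted antibodies, at 4760, 1060, 3859 and 1078 units in parous, AMV, parous+MNU and AMV+MNU glands, whereas Cd74, the invariant chain of antigen presentation, measured 2377, 3114, 2867 and 2921 units. Endothelial markers, 5 with 1 under the floor, summed to 4390 units in AMV+MNU against 4779 to 5050, and 5 fibroblast markers to 6977 units within a range of 6072 to 7783. Skeletal muscle markers, 5 in number, summed to 2961 units in AMV+MNU and 2079 to 2774 in the others, and their part was not tested.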

How the data were processed

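Total RNA of whole mammary gland was measured on 4 arrays, 1 per group. The deposited values are 1 intensity per feature and array on a linear scale. How the authors scanned, background-corrected or scaled the intensity values, and what a blank means, is not stated per the labels. The annotation gave 12750 features 1 symbol, 7745 none and 5 several, which named no gene, and 12720 symbols were matched to current names. The values were quantile normalized on the log2 scale over features with values on all 4 arrays, floored at the pooled 40th percentile and filtered at the pooled 50th on any array. The brightest kept feature stood for a gene, leaving 6182 genes, 5582 of them on all arrays. Differences have no test within a pair. Parity and MNU were fitted additively in limma 3.58.1 (R 4.3.3), with Benjamini-Hochberg adjustment over all 5582 genes, after a test on simulated data. The genes and lists were chosen with earlier results of these data known. All 49 genes are accounted for, those past 1.5-fold with a value per array. Other pathway genes were to be named past 2-fold, regulators where kept. Other normalizations, floors, filters and feature rules were tried. The number of arrays limits the precision.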

Additional observations from a re-analysis of the deposited data

Results flagged for a closer look

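The MNU difference had opposite signs in virgin and parous glands in 11 of the 28 genes with all 4 values. Over all kept genes 50.9% lay above 0 in virgin and 49.2% in parous glands. The share of all genes with opposite signs was not counted, so the 11 are not read as a result about these genes. In 6 of the 11 these differences were at least 2-fold apart, where 0.376% of all 5582 genes were at least 2-fold higher in virgin minus parous glands, whatever the signs. The virgin minus parous difference was 1.49 on the log2 scale for Cks2, 1.40 for Ube2c, 1.30 for Cdk1, 1.30 for Mki67, 1.28 for Cdkn3 and 1.12 for Uhrf1. In each of the 6 the virgin difference was over 2-fold and the parous difference lay between -0.27 and -0.03. For scale, the robust SD over all genes was 0.194 for MNU in parous glands, so a parous sign near 0 carries little weight. The parous+MNU value of Uhrf1 was under the floor. The difference between virgin and parous glands was not tested, because each group has 1 array.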

How the results depend on the processing

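No paired analysis was possible because each group has 1 array and the labels give no replicate numbers, and for the same reason no replicate could be left out. Of the alternatives, no filter with no floor, a filter on the mean and quantiles within a pair were chosen after seeing the data. Of the single genes, 196 of 223 alternative values stayed within the robust SD over all genes of their comparison (0.19 for MNU in virgin glands, 0.2 for parity with MNU, log2 scale), 27 moved further and 0 reversed. Many of the 196 could not move, because a change of filter, floor or feature rule leaves the value of most of these genes as it was. That count is therefore no measure of robustness. All 27 moves came with the values as deposited or after background subtraction. As deposited, the all-gene medians were -0.08 and -0.36 for parity without and with MNU, -0.10 and -0.40 for MNU in virgin and parous glands and 0.30 for the virgin minus parous difference. The median over the cell cycle genes for parity with MNU was -0.41, and it was -0.68 as deposited, -0.53 after background subtraction, -0.23 without filter, -0.20 over the S phase genes of the stated rule and -0.61 over the mitotic genes. For MNU in virgin glands it was 0.42, and 0.31 as deposited, 0.52 with quantiles over all values, 0.53 after background subtraction, 0.28 without filter and 0.77 over mitotic genes. For MNU in parous glands it was 0.00, and -0.35 as deposited, and 0.13 over the S phase genes of the rule. For parity without MNU it was 0.02, and 0.15 over mitotic genes. The virgin minus parous difference was 0.40, and 0.54 as deposited, 0.51 without floor, 0.50 after background subtraction, 0.22 without filter, 0.27 without both, 0.51 with a filter on the mean, 0.11 over the S phase genes of the rule and 0.77 over mitotic genes. Genes at least 2-fold different for parity without MNU numbered 27, with 43 after background subtraction and 102 at 1.5-fold. For parity with MNU they numbered 23, with 67 as deposited, 45 after background subtraction and 131 at 1.5-fold. For MNU in virgin glands they numbered 23, with 57 after background subtraction and 133 at 1.5-fold. For MNU in parous glands they numbered 5, with 44 as deposited, 8 without floor, 8 without floor or filter, 13 after background subtraction, 3 with a strict filter, 9 with the mean of features and 56 at 1.5-fold. Genes that limma called for parity numbered 66, with 112 under median centring, 111 with a filter on the mean, 37 with the mean of features, 0 without filter (738 at an unadjusted p under 0.05), 113 with quantiles over all values and 131 with the strict filter. For MNU they numbered 10, with 25 after background subtraction, 106 under median centring, 70 as deposited, 73 with a filter on the mean, 6 with robust estimation, 0 with the mean of features, 0 without filter, 0 without filter or floor (684, 828 and 988 at an unadjusted p under 0.05), 4 without floor, 153 with quantiles over all values and 113 with the strict filter. The causes of these shifts were not tested. A single array per group limits every difference above, and genes near the floor can hide steps.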
